A study of Mus musculus with 2 samples.

Results

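Pericytes are mural cells that lie on the outer face of capillaries and small venules, inside the basement membrane they share with the endothelium. Here they were single cells chosen by their own RNA from the healing tendon of mice, 459 in the TrkA F592A library and 442 in the TrkA WT library. Together they were 901 of the 20036 cells that passed the quality filter. A cell was taken as a pericyte with at least 2 UMIs (unique molecular identifiers, tags that mark single captured RNA molecules) of Rgs5, at least 2 of Notch3 and at least 1 of Kcnj8 or Abcc9. It also had at most 1 UMI of Pecam1 and Ptprc together, and under 2% of its UMIs on the fibrillar collagen genes Col1a1, Col1a2 and Col3a1. The levels of these genes in the chosen cells therefore describe the choice, and no test can be made on them.

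Both libraries came from the injured tendon area of 12-week-old mice, 14 days after surgery, with 3 mice pooled per genotype. One library was from TrkA F592A mice, titled INMPP1 in the labels after a kinase inhibitor, and the other from TrkA WT mice, titled Control. TrkA is a neurotrophin receptor with kinase activity, and the F592A change is known to open its kinase pocket to bulky inhibitors of this kind. The mutation is a point change, so transcript levels do not check the genotype labels. The labels do not say whether the WT mice were given the inhibitor, or at which dose. Mutation, inhibitor and pool cannot be told apart. The tissue was digested with collagenase and dispase, so shares are shares of the cells that were released and captured. With 1 library per genotype there is no replicate check, no difference was tested, and "higher" and "lower" state what these libraries hold. Each interval is at 95% and takes in counting error alone.

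Pericytes hold on to vessels through platelet-derived growth factor receptor beta and Notch3, which read PDGF-B and Jagged or Delta ligands on the endothelium. They set capillary tone through actin, myosin and potassium channels, and they deposit laminin and type IV collagen. Some mural cells carry the neurotrophin receptor p75, and perivascular cells of wounds can secrete chemokines that draw in monocytes and neutrophils.

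The F592A library held 10677 barcodes and 181472230 UMIs, and the WT library held 14868 barcodes and 222874195 UMIs. Before any result, 764 barcodes occurred in both libraries, of which 113 in F592A and 114 in WT passed the quality filter, and they were left out. Only 2 of them in each library met the pericyte rule, and the share ratio with them kept was 1.39. Pericytes held 5986184 UMIs in F592A and 5221195 in WT. A pericyte had a median of 11927 UMIs in F592A (range 1375 to 43652) and 11001.5 in WT (range 1284 to 35967). The mitochondrial share had a median of 5.15% in F592A and 6.17% in WT pericytes. Scrublet called 4 F592A and 6 WT pericytes doublets, which the rule kept.

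Of the marker genes of pericytes, the rule itself used Rgs5, Notch3, Kcnj8 and Abcc9, so only Mcam, Pdgfrb and other unused genes check the name. Levels are given as CPM, the usual counts-per-million scale, taken over all UMIs of a library's pericytes. Rgs5, a brake on G protein signalling that is the most used pericyte marker, was at 9270.3 CPM in F592A and 8548 CPM in WT pericytes. Endothelial cells held 16.3 and 7.02 CPM of it in the same libraries, but smooth muscle cells held 4279 and 8194 CPM. Notch3, the Notch receptor of mural cells, was at 646 CPM in F592A and 516 CPM in WT pericytes. The endothelial, stromal and macrophage gates each held under 3 CPM of Notch3, since their rules allowed at most 1 UMI of it in a cell. Smooth muscle cells, whose rule required Notch3, held 615 CPM of it in F592A and 508 CPM in WT. Rgs5 and Notch3 thus do not part pericytes from smooth muscle here. Mcam, an adhesion molecule of vessel walls that the rule did not use, was at 379 CPM in F592A and 363 CPM in WT pericytes, but also at 256 and 304 CPM in endothelial cells. Pdgfrb, the receptor for PDGF-B, was at 705 CPM in F592A and 575 CPM in WT pericytes, against 96.6 and 76.0 CPM in stromal cells and 4.03 and 3.45 CPM in endothelial cells. The 8 endothelial markers summed to 24.2 CPM in F592A and 32.9 CPM in WT pericytes, and the 8 macrophage markers to 146 and 489 CPM. Smooth muscle markers, 7 in number, summed to 6476 CPM in F592A and 8216 CPM in WT pericytes, against 22478 and 27047 CPM in smooth muscle cells. A UMI of them was present in 98.3% of F592A and 98.9% of WT pericytes. The 9 stromal markers summed to 5634 CPM in F592A and 7013 CPM in WT pericytes, and collagen RNA is also present in every other gate.

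**Figure D1:**
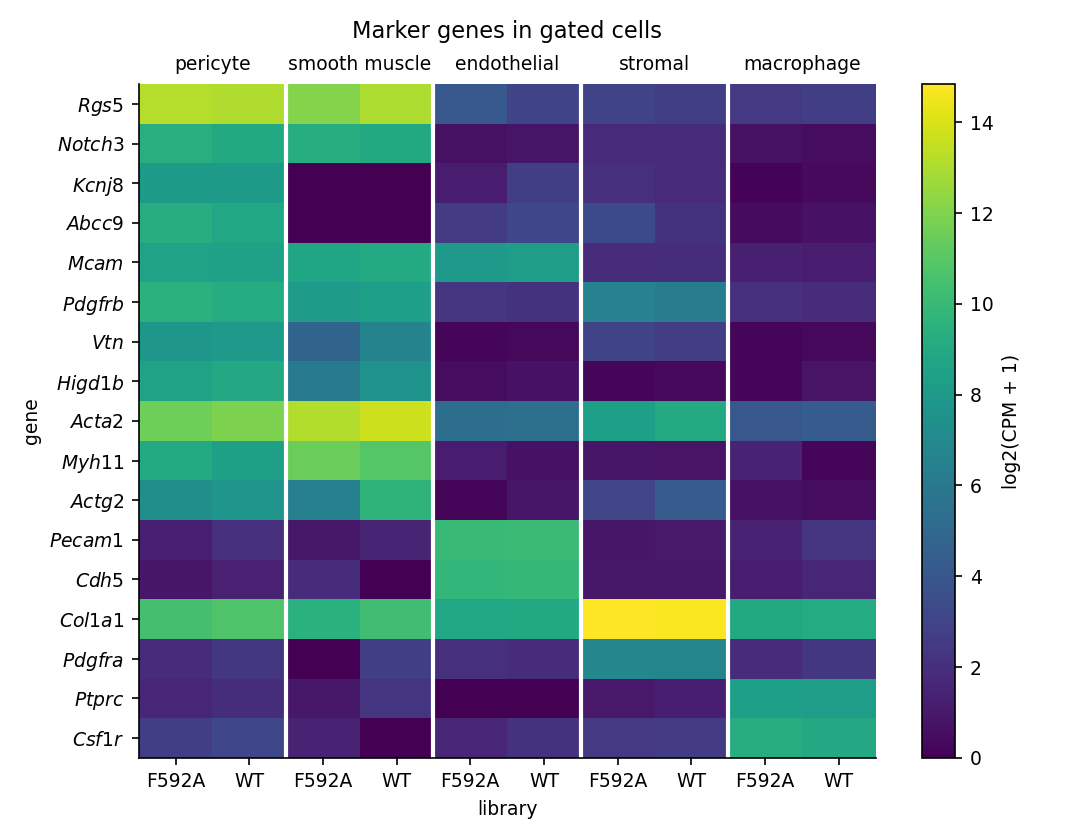
Level of marker genes, as log2(CPM + 1) of UMIs summed over the cells of a gate, for pericytes, smooth muscle, endothelial, stromal and macrophage cells, with F592A left of WT in each pair of columns. Rgs5, Kcnj8, Abcc9, Vtn and Higd1b are bright in the pericyte columns of both libraries, while Kcnj8 and Abcc9 are at 0 in smooth muscle by that gate's rule.

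Kcnj8 and Abcc9 encode the pore and the regulatory subunit of the vascular ATP-sensitive potassium channel and lie next to each other on chromosome 6 of GRCm38. Kcnj8 spans 142564837 to 142571614 and Abcc9 spans 142587862 to 142702315, both on the minus strand. In pericytes Kcnj8 was at 273 CPM in F592A and 271 CPM in WT (log2 ratio F592A over WT 0.01, interval -0.10 to 0.11). Abcc9 was at 601 CPM in F592A and 472 CPM in WT (log2 ratio 0.35, interval 0.27 to 0.42). Both genes were part of the rule, so these values are a description.

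By a rule of rank, the 20 genes whose lower pericyte level stood furthest above the endothelial, stromal and macrophage gates were listed. Smooth muscle cells, the nearest relatives, were not part of that ranking. Of the 20 genes, 8 were higher in smooth muscle than in pericytes in both libraries and 10 were lower in both. The lower of the 2 pericyte levels of Higd1b, from a family of mitochondrial inner membrane proteins, was 532 times the highest level in those 3 gates. Its level was 367 CPM in F592A and 492 CPM in WT pericytes, and 66.4 and 200.1 CPM in smooth muscle. H2-M9, a class I histocompatibility gene, had 31.1 CPM in F592A and 59.4 CPM in WT. Trarg1, a regulator of glucose transporter trafficking in fat cells, had 55.6 CPM in F592A and 46.3 CPM in WT. Olfr558, an olfactory receptor gene, had 102 CPM in F592A and 80.2 CPM in WT pericytes, and more in smooth muscle, with 185 CPM in F592A and 154 CPM in WT. Trpc6, a cation channel opened by diacylglycerol, and Atp1b2, a sodium pump subunit, were likewise higher in smooth muscle of both libraries. Cck, the gene of the peptide hormone cholecystokinin, was at 85.9 CPM in F592A and 124 CPM in WT pericytes, and 79.2% of its F592A UMIs and 76.3% of its WT UMIs sat in the 22 cells with the most of them. Smooth muscle held 188 CPM of Cck in F592A and 162 CPM in WT. Colec11, a soluble lectin of the complement system, had 94.2 CPM in F592A and 74.9 CPM in WT pericytes, against 8.19 and 40.4 CPM in smooth muscle. Ngfr, the p75 neurotrophin receptor, was in the same set with 50.1 CPM in F592A and 39.8 CPM in WT pericytes, against 6.37 and 26.9 CPM in smooth muscle. These ranks are a description, since the cells were chosen on RNA of the same cells.

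Pericytes made up a larger share of the F592A library, and so did the endothelial cells they cover. They were 5.37% of F592A cells (459 of 8551, exact binomial interval 4.90 to 5.87) and 3.85% of WT cells (442 of 11485, interval 3.50 to 4.22). The ratio of shares was 1.39 (Katz log interval 1.23 to 1.58). Endothelial cells were 7.31% of F592A cells and 4.90% of WT cells, and the ratio of those shares was 1.49 (1.34 to 1.67). There were 73.4 pericytes per 100 endothelial cells in F592A and 78.5 in WT. Of the cells in the pericyte, smooth muscle and endothelial gates together, pericytes were 39.4% in F592A and 42.0% in WT, a ratio of 0.939 (interval 0.850 to 1.04). The smooth muscle gate held 80 F592A cells and 48 WT cells, a ratio of shares of 2.24 (interval 1.57 to 3.20). Stromal cells, the bulk of both libraries, had a ratio of 0.957 and macrophages of 0.953.

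The rule counts UMIs, so the depth of a cell bears on it. Notch3 at 2 UMIs passed 682 F592A and 647 WT cells. After the Rgs5 and channel criteria 512 and 530 were left, after the Pecam1 and Ptprc limit 496 and 503, and after the collagen limit the final 459 and 442. Cells just inside the Notch3 limit, with exactly 2 UMIs, numbered 33 in F592A and 58 in WT, and cells just outside it, with 1 UMI, numbered 20 in F592A and 46 in WT. The outside cells had a median Rgs5 level of 76.2 UMIs per 10000 in F592A and 70.1 in WT, against 72.4 and 76.4 in the inside cells. Cells that met all but the channel criterion numbered 70 in F592A and 51 in WT, and their median Myh11 level was 22.6 UMIs per 10000 in F592A and 12.4 in WT, against 11.3 and 6.29 for cells with 1 channel UMI. With every cell thinned to 5000 UMIs the rule found 314 F592A and 268 WT pericytes, a ratio of shares of 1.54 (interval 1.32 to 1.81), chosen from 7812 and 10299 cells deep enough. At 5 UMIs of Rgs5 and of Notch3 it left 355 F592A and 257 WT cells, and the ratio was 1.86 (interval 1.58 to 2.17).

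**Figure D2:**
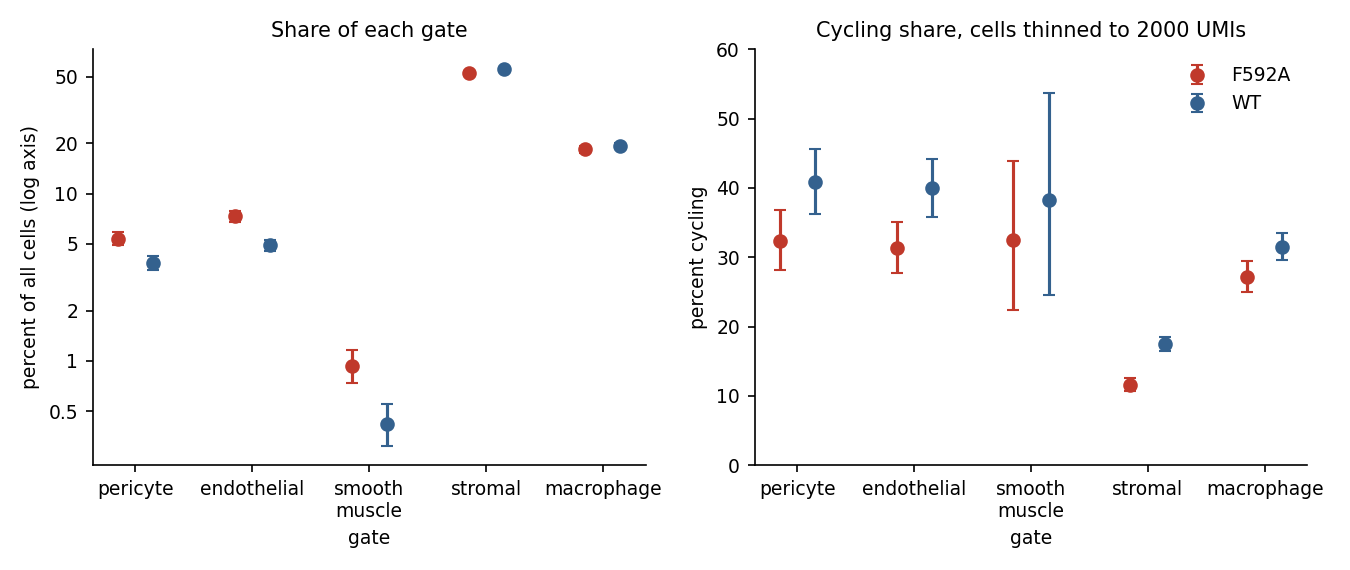
Left, percent of all cells in each gate on a log axis; right, percent of a gate's cells with at least 2 UMIs of the cell cycle list after thinning to 2000 UMIs; F592A left of WT, points with exact binomial 95% intervals. The pericyte and endothelial points lie higher in F592A at left (5.37% and 7.31%), and the F592A cycling points lie lower in every gate at right, with overlapping intervals for pericytes and smooth muscle.

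Within either library the pericytes spread along a contractile axis. Acta2, smooth muscle actin, had a median of 12.5 UMIs per 10000 in F592A pericytes (quartiles 1.59 and 35.8, highest 213) and 16.1 in WT pericytes (quartiles 2.93 and 46.7, highest 242). Rgs5 varied far less, with a median of 88.4 UMIs per 10000 in F592A (quartiles 63.6 and 120.3) and 83.2 in WT (quartiles 62.6 and 109.7). Across cells, Acta2 went with Tagln, an actin-bundling protein of smooth muscle, at a Spearman rho of 0.89 over 459 F592A cells and 0.84 over 442 WT cells. It went against Steap4, a metal reductase, at -0.53 in both libraries, and had almost no relation to Rgs5 (0.04 in F592A and 0.03 in WT). These values share library and depth and are given as descriptions.

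Split by Acta2, the ends of that axis carried different genes. Above 20 UMIs per 10000 lay 180 F592A and 199 WT cells, and below 5 lay 165 F592A and 139 WT cells. The Acta2-high cells were deeper, with a median of 14925 UMIs in F592A and 12234 in WT, than the Acta2-low cells, with 9874 and 9179. In F592A, Kcnj8 was at 156 CPM in Acta2-high and 398 CPM in Acta2-low cells, and in WT at 176 and 429 CPM. Abcc9, Pdgfrb, Steap4, Rgs4 and Ebf1 were likewise lower in Acta2-high cells of both libraries, with Steap4 at 256 and 737 CPM in F592A and 228 and 707 CPM in WT. The pericyte genes Mcam, Higd1b and Des went the other way in both libraries. Mcam was at 420 CPM in Acta2-high and 314 CPM in Acta2-low cells of F592A, and likewise at 420 and 314 CPM in WT. Notch3 was nearly even, at 649 CPM in Acta2-high and 648 CPM in Acta2-low cells of F592A and 498 and 536 CPM in WT. Ntrk2, which encodes the BDNF receptor TrkB, lay on the Acta2-low side, at 85.5 and 198 CPM in F592A and 60.4 and 121 CPM in WT. Lmod1, Cnn1 and Actg2, genes of the smooth muscle contractile apparatus, lay on the other side, and Cnn1 had no UMI in the Acta2-low cells of either library. The cut points were chosen after the values were seen. Kcnj8, Abcc9 and Notch3 were part of the rule, so their values at the 2 ends are a description. Cells that met all but the channel criterion had a median Acta2 level of 62.4 UMIs per 10000 in F592A and 103.5 in WT. They were left out, so the Acta2-high end lacks cells without a UMI of Kcnj8 or Abcc9.

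**Figure D3:**
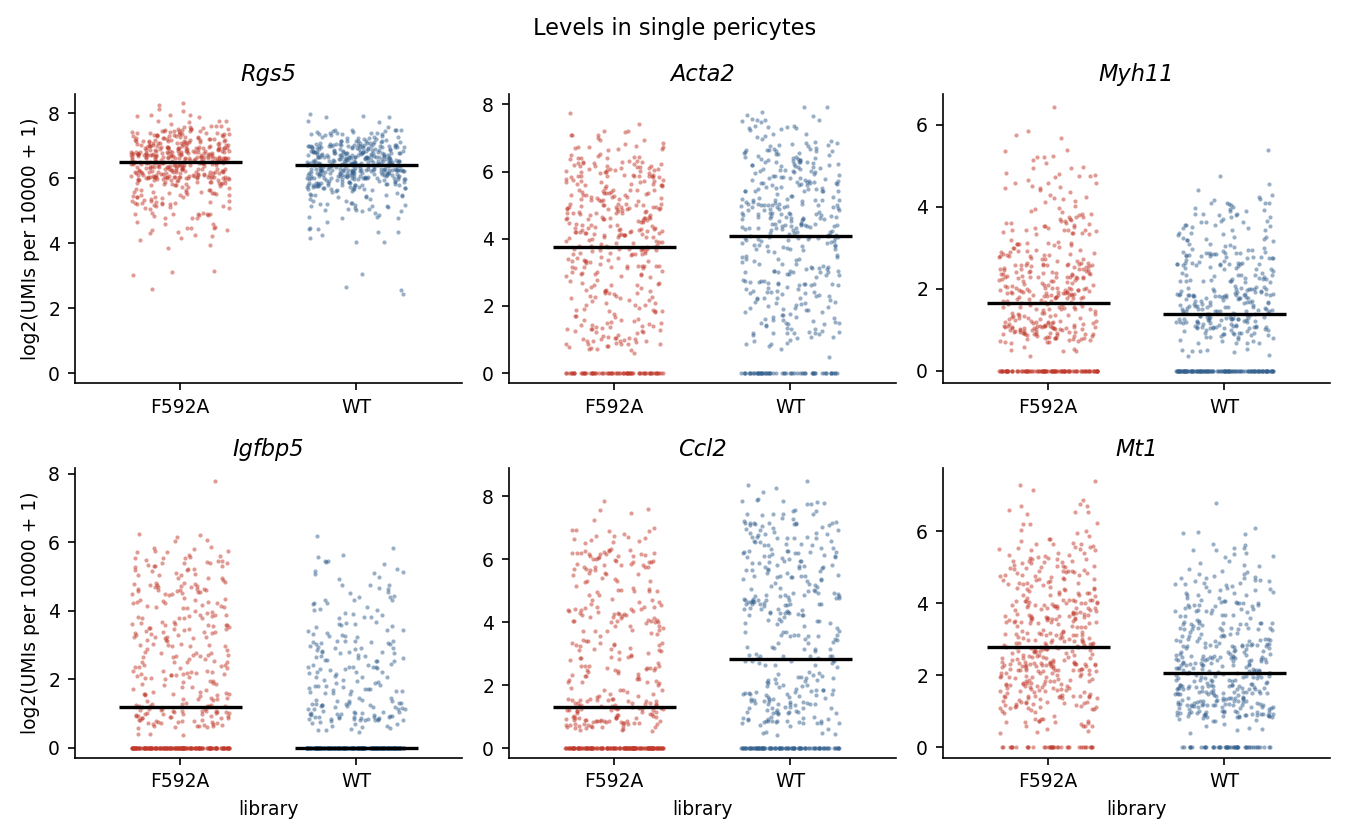
Level in each of 459 F592A and 442 WT pericytes, as log2(UMIs per 10000 + 1), for 6 genes; each point is a cell and the bar is the median. Rgs5 forms a narrow band, Acta2 reaches from 0 upward in both libraries, Igfbp5 and Mt1 have higher medians in F592A, and Ccl2 has the lower median there (1.49 UMIs per 10000 in F592A and 6.16 in WT).

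Between the genotypes, most pericyte transcripts lay close together. With at least 50 UMIs over both libraries, 9667 genes were measured, and their median log2 ratio was -0.09. Of the 5785 measured genes that reached 20 CPM in the higher library, 22 (0.380%) stood 2-fold or more above WT in the F592A pericytes, and 51 (0.882%) stood 2-fold or more below. With TMM scaling the split was 28 higher and 42 lower, and with median-of-ratios scaling 32 higher and 39 lower. After ribosomal, haemoglobin, unnamed and similar genes, and genes whose highest pericyte level was under 1/4 of that in another gate were set aside, 7 higher and 22 lower genes remained to be named.

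**Figure D4:**
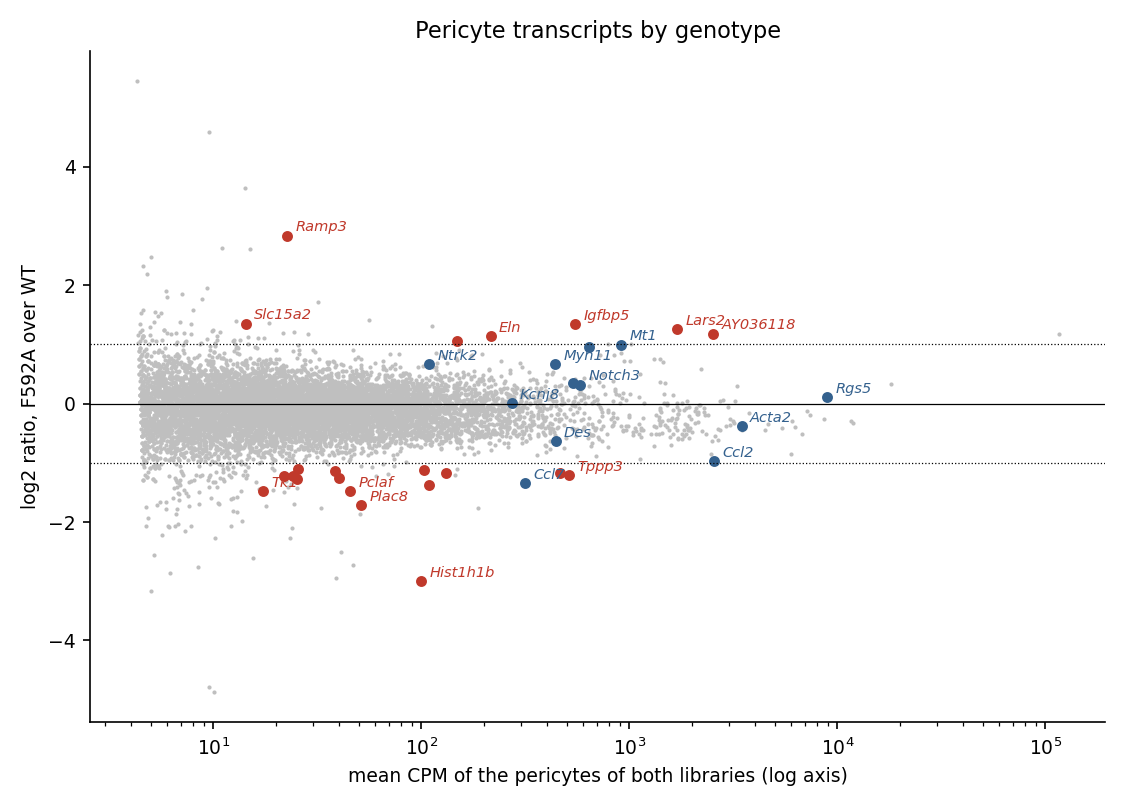
Log2 ratio of F592A over WT pericytes against the mean CPM of both libraries (log axis) for 9667 measured genes, with dotted lines at 2-fold; red points are the genes named by rank and blue points are marker and list genes. Igfbp5, Eln and Ramp3 stand above the upper line, Hist1h1b lies lowest of the named genes at -3.00, and Rgs5, Notch3 and Kcnj8 lie between the dotted lines.

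The higher genes include secreted and matrix proteins of the vessel wall. Igfbp5, a secreted binder of insulin-like growth factors on chromosome 1 (72857932 to 72874884), was at 786 CPM in F592A and 310 CPM in WT pericytes, with a log2 ratio of 1.34 (interval 1.26 to 1.42) from 4703 and 1619 UMIs. Its log2 ratio was 1.14 in smooth muscle and 0.37 in endothelial cells, but -0.01 in stromal cells and -1.68 in macrophages (interval -1.88 to -1.49). Eln, the gene of tropoelastin, was at 296 CPM in F592A and 134 CPM in WT (log2 ratio 1.14, interval 1.01 to 1.27). Its log2 ratio was 1.69 in smooth muscle, and also above 0 in endothelial (0.75), stromal (0.60) and macrophage cells (0.63). Iigp1, an interferon-inducible GTPase, was at 200.5 CPM in F592A and 96.1 CPM in WT (log2 ratio 1.06). Its log2 ratio was 1.08 in endothelial cells, but -0.47 in smooth muscle, -0.34 in stromal cells and -1.25 in macrophages. Slc15a2, a peptide transporter, rested on 123 F592A and 42 WT UMIs (log2 ratio 1.35, and 4.40 with every cell thinned to 2000 UMIs). In the other gates its log2 ratio was 1.47 for smooth muscle, 0.58 for endothelial, 1.07 for stromal and 0.76 for macrophage cells. Lars2, a mitochondrial leucyl-tRNA synthetase, and AY036118, a transcript with no stated function, had log2 ratios of 1.27 and 1.19 in pericytes and were also higher in the other 4 F592A gates, by 0.68 to 1.30.

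Ramp3 had the highest log2 ratio of the genes named by rank, and a few cells carried it. RAMP3 pairs with the calcitonin receptor-like receptor to form receptors for adrenomedullin. Its level was 39.8 CPM in F592A and 5.55 CPM in WT pericytes, from 238 and 29 UMIs, a log2 ratio of 2.84 (interval 2.28 to 3.45). The 22 F592A cells with the most Ramp3 held 93.7% of its UMIs there, and only 19 F592A and 4 WT pericytes had 3 or more UMIs of it. Those 19 F592A cells had a median of 21642 UMIs, against 11695 in the other F592A pericytes, and held Rgs5 at 6857 CPM and Abcc9 at 513 CPM. They also held Cxcl14, a chemokine, at 294 CPM, against 6.63 CPM in the other F592A pericytes. Stromal cells held 231 CPM of Cxcl14 in F592A and 122 CPM in WT. Ramp1, the partner that forms the receptor for calcitonin gene-related peptide, went the other way, with 157 CPM in F592A and 214 CPM in WT pericytes (log2 ratio -0.44). Calcrl, the shared receptor itself, was at 29.6 CPM in F592A and 26.4 CPM in WT. Outside pericytes, macrophages held 16.2 CPM of Ramp3 in F592A and 19.6 CPM in WT.

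A group of contractile genes sat in the most muscle-like pericytes. Pericytes with over 10 Myh11 UMIs per 10000 numbered 62 in F592A and 40 in WT, a cut chosen after the values were seen. Itga8, an integrin of smooth muscle, was at 113 CPM in those F592A cells and 7.16 CPM in those WT cells, and near 2 CPM in the other pericytes of F592A (1.97) and WT (2.57). Over all pericytes it had 114 UMIs in 33 F592A cells, 36 of them in 1 cell, and 16 UMIs in 15 WT cells. Pln, which restrains the calcium pump of the sarcoplasmic reticulum, was at 54.2 CPM in the F592A cells and 21.5 CPM in the WT cells of that kind. It rested on few cells, with 56 UMIs in 12 F592A pericytes, 21 of them in 1 cell, and 14 UMIs in 3 WT pericytes, 12 of them in 1 cell. Eln was at 1175 CPM in Myh11-rich F592A cells and 290 CPM in Myh11-rich WT cells, but 136 and 116 CPM in the rest. Without the Myh11-rich cells, the log2 ratio of Eln was 0.23, that of Igfbp5 was 1.00, and 12 rather than 22 genes were at least 2-fold higher.

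Of the list of 20 pericyte identity genes, all 20 were measured, none was 1.5-fold higher and 1 was 1.5-fold lower. Over all measured genes 364 (3.77%) were 1.5-fold higher and 869 (8.99%) 1.5-fold lower. The list's median log2 ratio was 0.16, beside -0.09 over all measured genes. Des, the intermediate filament desmin, was the lower one, at 347 CPM in F592A and 537 CPM in WT pericytes (log2 ratio -0.63, interval -0.71 to -0.55). Short of 1.5-fold, Ndufa4l2 was at 533 CPM in F592A and 768 CPM in WT (-0.53), Higd1b was at -0.42 and Cox4i2, an isoform of a cytochrome oxidase subunit, at -0.41. Rgs4, a relative of Rgs5, was at 381 CPM in F592A and 288 CPM in WT (0.40), and Gucy1a1, a subunit of the nitric oxide receptor guanylate cyclase, at 240.4 and 182 CPM (0.40). Of 17 measured transcription factors of mural cells, none reached 1.5-fold in either direction (median 0.19), among them Ebf1 at 928 CPM in F592A and 781 CPM in WT and Tbx18, Foxc1 and Epas1. The 13 measured Notch genes likewise had none past 1.5-fold and a median of 0.21, with the Notch targets Heyl at 0.31 and Hes1 at 0.25. Where the identity and Notch lists hold genes that the rule used, their counts and medians in part describe the choice of cells.

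The contractile list of 19 measured genes divided. Acta2 was at 3018 CPM in F592A and 3924 CPM in WT pericytes (log2 ratio -0.38, interval -0.41 to -0.35), Tagln at 2275 and 3073 CPM (-0.43) and Tpm2, a tropomyosin, at 1140.1 and 1481 CPM (-0.38). Myh11, smooth muscle myosin heavy chain, was at 541 CPM in F592A and 340 CPM in WT (0.67, interval 0.59 to 0.75), and Smtn, smoothelin, at 33.9 and 21.3 CPM (0.67). In all, 6 were 1.5-fold higher and 1 lower, beside 3.77% and 8.99% over all measured genes, and the median was 0.11. Without the Myh11-rich cells the log2 ratio of Myh11 was 0.19 and that of Myocd, the coactivator of smooth muscle genes, was -0.22 in place of 0.65. The list median relative to all measured genes was then -0.13, against 0.20 with them. The cells left out were chosen on Myh11 itself, so the fall of its own ratio describes that choice.

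Genes that set vessel tone had list medians above that of all measured genes. Of 16 measured ion channels and pumps, 3 were 1.5-fold higher and none lower (median 0.32), among them Atp2a3. Atp2a3, a calcium pump of the endoplasmic reticulum, was at 14.2 CPM in F592A and 6.70 CPM in WT (log2 ratio 1.08, interval 0.50 to 1.69). Of 20 measured vasoactive receptors and cyclic nucleotide genes, 3 were 1.5-fold higher and none lower (median 0.26). Both counts stand beside 3.77% higher and 8.99% lower over all measured genes. Both endothelin receptors were a little higher, with Ednrb at 557 CPM in F592A and 414 CPM in WT (0.43) and Ednra at 223 and 177 CPM (0.33). Npy1r, the receptor for neuropeptide Y of sympathetic nerves, was at 64.8 CPM in F592A and 84.8 CPM in WT (-0.39), and the adrenergic receptor Adra2a at 149 and 183 CPM (-0.30).

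Neurotrophin genes bear on a study of TrkA. Both of the measured receptors named here were higher in F592A pericytes, with log2 ratios in parentheses: Ntrk2 was at 133 CPM in F592A and 84.1 CPM in WT (0.66, interval 0.49 to 0.83), and Ngfr was at 50.1 and 39.8 CPM (0.33, interval 0.07 to 0.59). Sort1, sortilin, which joins p75 in binding proneurotrophins, was at 73.7 CPM in F592A and 46.0 CPM in WT (0.68). Ntrk3, the receptor for neurotrophin-3, had 32 F592A and 8 WT UMIs, too few to be measured, and was at 32.5 CPM in Myh11-rich F592A cells and 5.37 CPM in Myh11-rich WT cells. Over the 8 measured genes of the list, 3 were 1.5-fold higher, 1 lower, and the median was 0.30. Among all measured genes 3.77% were 1.5-fold higher and 8.99% lower.

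Axon guidance genes had the highest median of the lists, 0.41 over 15 measured genes, with 3 genes 1.5-fold higher and 1 lower. Sema5a, a semaphorin, was at 94.9 CPM in F592A and 67.8 CPM in WT (log2 ratio 0.48), Plxnd1, a semaphorin receptor, at 102 and 76.8 CPM (0.41) and Slit3, a repellent ligand, at 45.8 and 33.3 CPM (0.46). Sema3c was the lower one, with 15 UMIs in F592A and 55 in WT pericytes, 96.4% of the WT UMIs in 22 cells. Of 17 measured Wnt genes, 4 were 1.5-fold higher and 2 lower. For both lists, the shares over all measured genes were 3.77% higher and 8.99% lower. The receptors Fzd4 (124 CPM in F592A, 80.1 CPM in WT) and Fzd8, the pathway target Axin2 and its transcription factor Tcf7l2 were the higher ones.

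Chemokines stood on the lower side. Of 25 measured cytokine, chemokine and adhesion genes, none was 1.5-fold higher and 8 were 1.5-fold lower, with a median of -0.21. The shares over all measured genes were 3.77% higher and 8.99% lower. Ccl2, the main monocyte attractant, was at 1714 CPM in F592A and 3368 CPM in WT pericytes (log2 ratio -0.97, interval -1.01 to -0.94). Its neighbour Ccl7, of the same gene cluster on chromosome 11, was at 179 CPM in F592A and 452 CPM in WT (-1.34, interval -1.44 to -1.23). The neutrophil attractants Cxcl1, at 1752 CPM in F592A and 3171 CPM in WT, and Cxcl2, at 484 and 894 CPM, had log2 ratios of -0.86 and -0.89. Il6 was not on that side, with 956 CPM in F592A and 897 CPM in WT (0.09), and Cxcl12, a retention signal for stem and immune cells, was at 114 and 86.4 CPM (0.41). Ccl2 was concentrated, as 22 cells held 40.2% of its F592A UMIs and 32.2% of its WT UMIs. The 8 macrophage markers were lower in F592A as well, and not in pericytes alone. Their sum was 146 CPM in F592A and 489 CPM in WT pericytes, with none at 0 in either library, and a cell ranged from 0 to 209 UMIs per 10000 in F592A and from 0 to 217 in WT. In F592A and WT the sum was 92.8 and 248 CPM in smooth muscle, 80.0 and 232 CPM in endothelial and 109 and 247 CPM in stromal cells. Without the pericytes over 5 macrophage marker UMIs per 10000, which left 445 F592A and 384 WT cells, the log2 ratio of Ccl2 was -1.04 and that of Ccl7 was -1.41. Ccl2 was also lower in F592A stromal cells (-0.95), endothelial cells (-0.95) and smooth muscle (53.7 CPM in F592A and 1708 CPM in WT), and in macrophages its log2 ratio was -0.12. A macrophage marker UMI was present in 61.7% of F592A and 90.5% of WT pericytes. Leaving out the cells over 5 per 10000 does not take out such RNA spread thinly over cells. The part of macrophage RNA in the chemokine values was otherwise not tested.

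**Figure D5:**
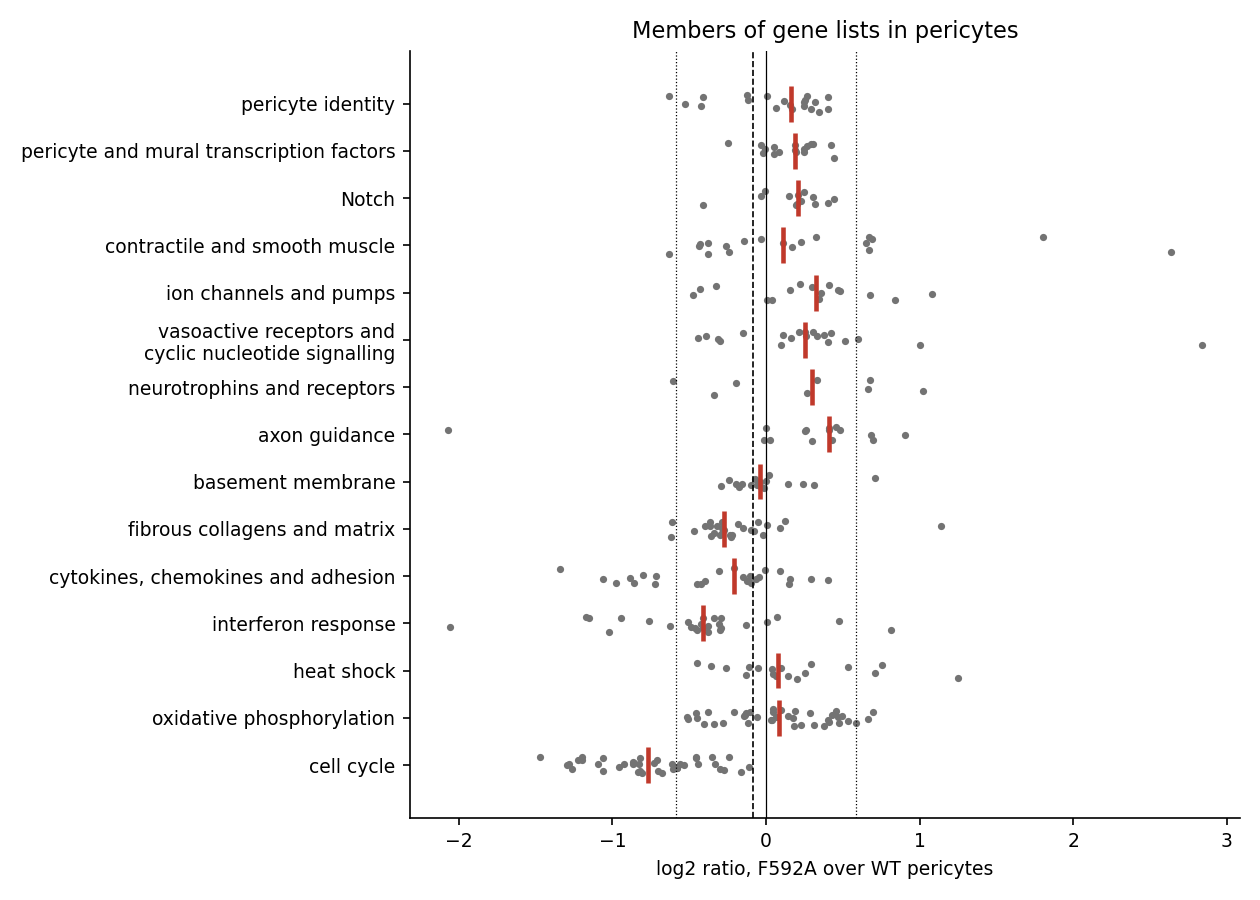
Log2 ratio of F592A over WT pericytes for each measured member of 15 gene lists; grey points are genes, red bars list medians, the dashed line the median of all measured genes (-0.09) and dotted lines 1.5-fold. Cell cycle genes lie left of 0 throughout, chemokines and interferon genes reach left, and channel, receptor and guidance genes lie mostly right of 0.

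Interferon response genes also lay on the lower side, with 7 of 26 measured genes 1.5-fold lower, 1 higher and a median of -0.41. Over all measured genes 8.99% were 1.5-fold lower and 3.77% higher. Bst2, tetherin, which holds virus particles at the cell surface, was at 80.7 CPM in F592A and 182 CPM in WT (log2 ratio -1.17), and Psmb8, a subunit of the immunoproteasome, at 43.1 and 87.5 CPM (-1.02). Without the pericytes rich in macrophage markers these log2 ratios were -1.10 for Bst2 and -0.997 for Psmb8. Irf1, an interferon-regulated transcription factor, was the higher one of the list, at 221 CPM in F592A and 126 CPM in WT (0.81). Iigp1, the interferon-inducible GTPase named above and not on the list, was higher too, with a log2 ratio of 1.06.

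Cell cycle genes had the lowest median of the pathway lists, -0.77. All 40 were measured, 26 were 1.5-fold lower and none higher, beside 8.99% lower and 3.77% higher over all measured genes. Top2a, the topoisomerase of dividing cells, was at 47.8 CPM in F592A and 99.6 CPM in WT pericytes (log2 ratio -1.06, interval -1.27 to -0.85), Mki67 at 51.6 and 94.2 CPM (-0.87) and Pclaf, a partner of the replication clamp, at 24.1 and 66.7 CPM (-1.47). Hist1h1b, a linker histone made in S phase and not on that list, had 133 UMIs in F592A and 927 in WT (-3.00, interval -3.27 to -2.73). Few cells carried it, as only 23 F592A and 49 WT pericytes had a UMI of it. The 22 cells with the most held 99.2% of its UMIs in F592A and 92.8% in WT. Of the other named lower genes, Tk1, Hist1h1e, Spc24, Birc5, Cdca3 and Topbp1 belong to replication, chromatin or mitosis. After thinning to 2000 UMIs, 32.4% of F592A pericytes (148 of 457, interval 28.1 to 36.9) and 40.9% of WT pericytes (180 of 440, interval 36.3 to 45.7) had at least 2 UMIs of the list, a ratio of 0.792 (interval 0.665 to 0.942). Without thinning the shares were 92.8% in F592A and 94.1% in WT. The list holds Hmgb2, Tubb4b and Pcna, which are known to be transcribed outside division too, so these are not shares of dividing cells. Top2a alone was seen in 3.06% of thinned F592A pericytes (14 of 457) and 5.45% of thinned WT pericytes (24 of 440). The F592A share was also the lower one in the other gates, with ratios of 0.783 in endothelial cells, 0.663 in stromal cells, 0.863 in macrophages and 0.849 in smooth muscle. Thinned to 5000 UMIs, the pericyte ratio was 0.954.

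The remaining named lower genes were of mixed kinds. Tppp3, a tubulin-binding protein known as a marker of tendon sheath cells, was at 310 CPM in F592A and 715 CPM in WT pericytes (log2 ratio -1.21), and its ratio lay between -1.22 and -1.06 in the other 4 gates. S100a10, a partner of annexin A2, was at 286 CPM in F592A and 641 CPM in WT (-1.17), and Hilpda, a lipid droplet protein induced by low oxygen, at 64.8 and 141 CPM (-1.12). In the other 4 gates the log2 ratio of S100a10 lay between -2.13 and -0.61, and that of Hilpda between -1.32 and -0.16. Plau, urokinase, was at 24.1 CPM in F592A and 52.9 CPM in WT (-1.14), beside -0.01 in endothelial and 0.33 in stromal cells. Plac8 had 144 F592A and 410 WT UMIs (-1.71), and Slc43a3, a purine transporter, 97 and 181 (-1.10).

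Fibrous matrix genes had a median below that of all measured genes, with elastin the exception. All 27 fibrous matrix genes were measured, with a median log2 ratio of -0.27, 1 gene 1.5-fold higher (Eln) and 2 lower, namely Col12a1 at 103 CPM in F592A and 159 CPM in WT (-0.62) and Tnc, tenascin C, at 93.4 and 143 CPM (-0.61). These counts lie near the shares over all measured genes, 3.77% higher and 8.99% lower. The rule itself limited Col1a1, Col1a2 and Col3a1. The 17 measured basement membrane genes had a median of -0.04. Col4a1, the chain pericytes lay down with the endothelium, was at 3566 CPM in F592A and 3979.7 CPM in WT (-0.16), and Lama5, a laminin chain, at 44.8 and 27.4 CPM (0.71). Adamts1, a protease of proteoglycans, was at 845 CPM in F592A and 436 CPM in WT (0.96, interval 0.88 to 1.03). Timp1, an inhibitor of metalloproteases, was at 115 CPM in F592A and 206 CPM in WT (-0.84). Igfbp6 was at 8.02 CPM in F592A and 38.7 CPM in WT (-2.27), and 78.7% of its WT UMIs lay in 22 cells.

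The metallothioneins Mt1 and Mt2, small proteins that bind zinc and copper, were the 2 genes 1.5-fold higher among 18 measured genes of metal and oxidative stress. None of the 18 was 1.5-fold lower, but the list median was -0.29, below the -0.09 of all measured genes. Among all measured genes 3.77% were 1.5-fold higher and 8.99% lower. Mt1 was at 1215 CPM in F592A and 608 CPM in WT pericytes (log2 ratio 1.00, interval 0.94 to 1.06), and Mt2 at 199 and 106 CPM (0.91, interval 0.76 to 1.06). The median cell held 5.84 UMIs per 10000 of Mt1 in F592A and 3.15 in WT. Mt1 was higher in the other F592A gates too, where its log2 ratio was 1.23 for smooth muscle, 1.21 for stromal, 0.60 for endothelial and 0.64 for macrophage cells. The genes are neighbours on chromosome 8, and the 250 bases before each RefSeq start (GRCm38.p6, plus strand) are shown because metallothionein promoters are known to answer to metals through metal response elements. The GENCODE start used for gene positions lies 7 bases before the RefSeq start for Mt1 and 46 bases after it for Mt2, and the windows, and so the matches, depend on that choice. Capitals mark the core of that element, TGCACNC or TGCGCNC on either strand. The Mt1 window is chr8:94178839-94179088 and the Mt2 window chr8:94172368-94172617.
Mt1: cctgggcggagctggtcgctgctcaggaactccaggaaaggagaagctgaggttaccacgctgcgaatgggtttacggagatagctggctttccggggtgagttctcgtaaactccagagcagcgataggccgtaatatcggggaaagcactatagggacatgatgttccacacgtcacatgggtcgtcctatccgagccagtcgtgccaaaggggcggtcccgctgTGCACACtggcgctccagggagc
Mt2: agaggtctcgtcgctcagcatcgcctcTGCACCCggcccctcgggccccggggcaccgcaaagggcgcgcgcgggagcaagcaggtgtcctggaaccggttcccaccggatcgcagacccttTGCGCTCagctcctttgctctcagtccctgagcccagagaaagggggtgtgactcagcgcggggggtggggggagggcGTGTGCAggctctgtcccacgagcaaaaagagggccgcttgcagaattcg
The Mt1 window held 1 match and the Mt2 window 3, of which 1 was on the minus strand. Of 32851 RefSeq windows of that length, 21.4% held at least 1 match and 1.26% at least 3, and a match is not a bound site.

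Stress genes that tissue digestion can induce had list medians a little above the -0.09 of all measured genes. Above that median lay 20 of the 29 immediate early genes and 13 of the 18 heat shock genes. Single members were 1.5-fold higher in F592A. The 29 immediate early genes had a median log2 ratio of 0.07, with Fos at 598 CPM in F592A and 571 CPM in WT, and 2 of them, Atf3 (0.84) and Gadd45g (0.62), 1.5-fold higher. Of their 29 intervals, 13 lay above 0 and 5 below. Of 18 heat shock genes 3 were 1.5-fold higher and none lower, beside 3.77% higher and 8.99% lower over all measured genes. Their median was 0.08 and the highest log2 ratio among them 1.25. Hspa1b, one of the 3, was at 299 CPM in F592A and 182 CPM in WT (0.71). The 40 oxidative phosphorylation genes had a median of 0.08.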

How the data were processed

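Droplet counts (10x Genomics) of 1 TrkA F592A and 1 TrkA WT library were used as the authors deposited them, as whole UMI counts per gene and barcode. Cell Ranger 6.0.1 is named per the file headers. The submitters' processing notes instead give Cell Ranger 2.1.1, with Seurat and mm10, and the discrepancy could not be settled from the sources at hand. Cells had at least 1000 UMIs, at least 500 genes, at most 15% mitochondrial UMIs and a barcode found in 1 library only. The pericyte rule and the gene lists were chosen with earlier results of these data known, so no pattern here is independent support of another. Other gates required Myh11 and Notch3 without Kcnj8 or Abcc9 (smooth muscle), Pecam1 and Cdh5 (endothelial), at least 2% collagen UMIs (stromal), or Ptprc with Csf1r or Adgre1 (macrophage). UMIs of all pericytes of a library were summed and scaled to CPM, the log2 ratio of which has an exact interval from the binomial split of the UMIs. No test was made, since cells of 1 pool are not replicates. Genes with 50 or more UMIs in the 2 libraries together count as measured. Named genes were the 15 highest and 15 lowest at least 2-fold apart, reaching 20 CPM in one library, the 20 genes highest over other gates, and members of the 35 lists. Left out of naming were mitochondrial, ribosomal, haemoglobin, immunoglobulin, sex-linked and unnamed genes (8 of those called) and genes whose highest pericyte level was under 1/4 of another gate's (37). Genes picked outside these rules are named as concentrated in few cells or as found in Ramp3-rich cells. Some genes of the lists are not reported here. Thinning drew UMIs of a cell without replacement. Depth per library is given with the results, and the median half-width of a log2 interval was 0.36. TMM factors (edgeR 4.0.16), size factors (DESeq2 1.42.0), other rules, doublet removal (Scrublet in scanpy 1.11.5) and thinning were alternatives, applied to the deposited counts. For positions, GENCODE M21 (GRCm38, as mm10) matched 32158 of the 32285 gene IDs. The calculations were checked on simulated data.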

Additional observations from a re-analysis of the deposited data

How the results depend on the processing

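Under the alternatives run, direction and size held for most values. Of the shares, counts and list summary, 39 values stayed close to the reported one and 9 moved. Of the list medians, taken relative to all genes, 317 stayed close, 6 moved and that of the cell cycle list turned. Signs were less stable than that, as 26 values of 9 lists had the other sign, among them the contractile list without Myh11-rich pericytes (-0.13) and thinned to 2000 UMIs (-0.077). Apart from these 2 lists, the reported medians that changed sign were within 0.12 of all genes. Of the single-gene values 1476 stayed close, 225 moved and 11 turned from a called value to the other sign. The ratio of pericyte shares was 1.86 with at least 5 UMIs of Rgs5 and Notch3, 1.65 with the rule applied after thinning to 2000 UMIs, and 0.939 among vessel cells only, where its interval included 1. The cycling ratio was 0.645 with at least 3 UMIs and 0.954 after thinning to 5000 UMIs. Genes at least 2-fold lower numbered 93 under the rule with 5 UMIs, against 51. Genes at least 2-fold higher numbered 12 without the Myh11-rich pericytes, against 22. Thinned to 2000 UMIs, where 20 CPM is few UMIs, 115 genes were higher and 204 lower. The median of the cell cycle list relative to all genes was 0.12 without the cells that counted as cycling, which removes those genes by construction, and Cenpa (0.26) and Rrm1 (0.13) changed sign there. Other signs turned for Myocd (-0.22) without Myh11-rich pericytes, for Tbxa2r (-0.055), Rgs2 (-0.000243), Sorcs2 (-0.47), Ltbp1 (-0.055) and Plk1 (1.53) after thinning to 2000 UMIs, for Il33 with 5 UMIs of Rgs5 and Notch3 (0.30) or no Pecam1 or Ptprc UMI and collagens under 1% (0.37), and for Hbb-bs (-3.65) without Scrublet doublets. The cause of these was not tested. Alternatives that drop Myh11-rich, macrophage-marked or cycling pericytes, and the share after thinning to 2000 UMIs, were added after the data were seen. No paired analysis was possible because each genotype has 1 library and the labels give no replicate numbers, and for the same reason no library could be left out. Depth limits genes of 50 to 100 UMIs to log2 half-widths of about 0.73.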

Other observations

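Haemoglobin RNA in pericytes sat in a few cells. Hbb-bs was at 159.5 CPM in F592A and 64.4 CPM in WT pericytes (log2 ratio 1.31), and 1 F592A cell held 923 of its 955 UMIs there, and the highest WT cell held 235 of 336. Without Scrublet doublets the log2 ratio was -3.65.

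The fibroblast gene Pi16 had a log2 ratio of -1.99 in pericytes, from 33 F592A and 114 WT UMIs, and 1 WT cell held 83 of the WT UMIs. Single F592A pericytes of the 19 with at least 3 Ramp3 UMIs held other transcripts that were rare elsewhere. Ren1, the renin gene, had a UMI in 3 of them and was at 37.3 CPM, against 0.358 CPM in the other F592A pericytes, and no WT pericyte held one. Hgf and Acod1 were at 57.2 and 77.2 CPM in the same 19 cells, each from 1 cell. Srgn had a UMI in 9 of the 19 cells and was at 139 CPM, against 18.4 CPM in the other F592A pericytes. S100a9 was at 122 CPM, from 1 cell, against 6.27 CPM. Whether RNA of other cells was mixed into these 19 was not tested. These genes were picked after their values were seen.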
